A study of Homo sapiens with 6 samples.

Results

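The activator protein 1 (AP-1) transcription factor is a pair of proteins, and 8 genes that encode its subunits are described here in SNU449 cells, a human line established from hepatocellular carcinoma. The members are FOSL1, FOSL2 and FOS of the FOS family, JUN, JUNB and JUND of the JUN family, and ATF2 and ATF3 of the ATF family. They were taken by symbol and make up 8 of the 13117 genes with values. The set was chosen by the deposited values of these genes in treated and untreated libraries, which were already known, so their difference between the groups is given for the members as a description, with no test.

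All 6 libraries came from cells that carried FOXO1AAA in the doxycycline-inducible vector pInducer20, and the labels give the genotype as WT. In FOXO1AAA the residues at which AKT phosphorylates the FOXO1 protein, a transcription factor, are changed, which is known to keep it in the nucleus. Cont stands for 3 libraries of cells cultured without doxycycline and Dox for 3 libraries of cells given 2 µM doxycycline hydrochloride for 48 h. The labels do not say whether the cells were 1 clone or a pool, and they name no separate cultures behind the replicates. The p-values below then measure only the spread between these libraries, which may be technical. Cells without the construct were not given doxycycline, so effects of the drug and of FOXO1AAA cannot be told apart.

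AP-1 proteins belong to the basic leucine zipper (bZIP) class: a row of leucines holds the pair together and a basic stretch touches the DNA. JUN proteins can pair with each other, whereas FOS proteins need a JUN partner to bind DNA. Pairs of FOS and JUN proteins prefer the sequence TGACTCA, and pairs that hold an ATF protein prefer the cyclic AMP response element TGACGTCA. Several of the genes are switched on within minutes by growth factors or stress, and in carcinoma cells AP-1 is known for driving genes of invasion, proteolysis and proliferation.

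The series as a whole was strongly split by treatment. At a limma adjusted p under 0.05, 80.4% of the 11526 tested genes differed, 37.6% higher and 42.8% lower in Dox, and in 82.1% the values of the groups did not overlap. By an estimate from the steps between the lowest values, the libraries held 28.4 to 47.1 M reads. FOXO1 itself lay between 0.741 and 0.889 FPKM (fragments per kilobase of transcript and M mapped reads) in Cont and between 2.01 and 3.50 in Dox. The table does not show if construct reads are part of that value. mRNAs encoded by the mitochondrial genome took 3.00% to 4.67% of the summed FPKM in Cont and 13.2% to 14.7% in Dox. Of 14 hepatocyte markers, 6 had values and the other 8, HNF4A, APOA1, APOB, APOH, TTR, SERPINA1, TF and AHSG, were not analysed here. ALB was at 0.0941 to 0.571 FPKM in Cont and 0.850 to 1.71 in Dox, so the labelled liver origin is not visible in albumin mRNA. The 6 hepatocyte markers together summed to 175 to 237 FPKM in Cont and 20.8 to 22.9 in Dox, with FGB the highest in Cont and FGG in Dox. ASGR1, like ALB, went against the sum, at 0.258 to 0.447 FPKM in Cont and 0.521 to 0.933 in Dox. Summed levels lay at 122 to 127 FPKM in Cont and 32.8 to 34.5 in Dox for epithelial markers (3 of 5 with values), at 954 to 969 and 309 to 368 for mesenchymal markers (5 of 5), most of it VIM, and at 203 to 230.0 and 41.3 to 57.6 for fibroblast markers (2 of 5). Of the mesenchymal markers, FN1, ZEB1 and SNAI2 were higher in every Dox library than in any Cont library. The part of these shifts in the results below was not tested. Over all libraries the sums were 1.73 to 2.38 FPKM for immune cells (1 of 5 markers, CD14, with values) and 0.306 to 0.975 for endothelial cells (2 of 4).

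Promoter sequences are shown first for the members whose start region holds one of the letter strings searched. Windows from 250 bases before to 50 after the transcription start came from RefSeq (GRCh38.p14) for 6 of the 8 members, 7 windows in all, since ATF3 has a pair of starts. FOSL1 and ATF2 were not matched. The strings were TGACTCA, TGACGTCA and its variant TGACATCA, GTAAACA (the core of the forkhead box O motif) and TATAAA, all read on both strands, and no 2 matches overlapped. Distances are from the RefSeq start, and GENCODE places the first base of FOS and ATF3 inside the stretch printed here and that of JUN and FOSL2 before it. A match describes the letters in this window and is neither a bound site nor a cause.

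JUN and ATF3 shared TGACATCA, which 2.61% of all 35116 windows hold. It began 67 bases before the start of JUN and 123 bases before the first start of ATF3. The 220 bases before each start are printed 5′ to 3′ along the gene, with matches in capitals (JUN, chr1:58784048-58784267, minus strand; ATF3, chr1:212565187-212565406, plus strand).
JUN: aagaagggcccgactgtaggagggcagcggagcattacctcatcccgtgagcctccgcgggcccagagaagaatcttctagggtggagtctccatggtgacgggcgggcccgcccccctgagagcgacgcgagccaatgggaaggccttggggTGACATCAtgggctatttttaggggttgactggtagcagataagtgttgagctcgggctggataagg
ATF3: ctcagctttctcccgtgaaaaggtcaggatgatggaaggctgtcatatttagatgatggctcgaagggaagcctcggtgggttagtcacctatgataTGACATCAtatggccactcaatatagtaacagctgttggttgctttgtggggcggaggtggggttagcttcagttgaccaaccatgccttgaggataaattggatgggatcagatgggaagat

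JUND held the full element TGACGTCA 200 bases before its start, as do 1.85% of all windows. JUNB held GTAAACA on the opposite strand 166 bases before its start (printed here as TGTTTAC; 3.42% of all windows) and TATAAA 31 bases before it. FOS held TATAAA 33 bases before its start, and the second ATF3 window held it 230 bases before the start, so 3 of the 7 member windows hold a string found in 11.5% of all windows. The 220 bases before the start are shown for all 3, since JUND was lower and JUNB and FOS higher in Dox (JUND, chr19:18281623-18281842, minus strand; JUNB, chr19:12791266-12791485, plus strand; FOS, chr14:75278608-75278827, plus strand).
JUND: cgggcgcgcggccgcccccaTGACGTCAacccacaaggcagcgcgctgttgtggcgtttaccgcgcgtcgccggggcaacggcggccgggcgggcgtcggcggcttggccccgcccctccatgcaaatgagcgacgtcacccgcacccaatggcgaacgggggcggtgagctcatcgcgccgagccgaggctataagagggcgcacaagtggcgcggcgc
JUNB: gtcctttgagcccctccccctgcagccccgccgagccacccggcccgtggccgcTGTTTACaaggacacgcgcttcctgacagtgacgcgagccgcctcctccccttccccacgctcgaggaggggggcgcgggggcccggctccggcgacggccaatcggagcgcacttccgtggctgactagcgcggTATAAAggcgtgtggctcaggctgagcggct
FOS: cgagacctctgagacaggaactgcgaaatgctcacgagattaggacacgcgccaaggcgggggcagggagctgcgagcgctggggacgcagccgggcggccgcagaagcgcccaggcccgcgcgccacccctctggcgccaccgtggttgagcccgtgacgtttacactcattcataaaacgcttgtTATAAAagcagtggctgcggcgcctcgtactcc

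TGACTCA, the string that AP-1 itself prefers, appeared in 1 of the 7 member windows, that of FOSL2, against 4.95% of all windows. It began at base 5 of the FOSL2 transcript as RefSeq starts it, and the first 24 bases of that transcript (chr2:28392858-28392881, plus strand) are given with the string in capitals.
FOSL2: gtagTGACTCAtctcgggcagagc

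All 8 members passed the filter on low values (an FPKM of 1 or more in 3 or more libraries), FOS only through its 3 Dox libraries. Between the groups the values of 7 members did not overlap, 3 higher and 4 lower in Dox. Since 38.4% of all tested genes lay apart in the upward direction and 43.7% in the downward one, these counts are near what the series shows in general, and the choice of members rested on this contrast. The median difference in log2(FPKM + 1), Dox minus Cont, was -0.09 over the 8 members and -0.06 over all tested genes. In bulk RNA, fewer cells with a transcript and less of it per cell cannot be told apart. The plot of each library's values shows the members by family.

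**Figure D1:**
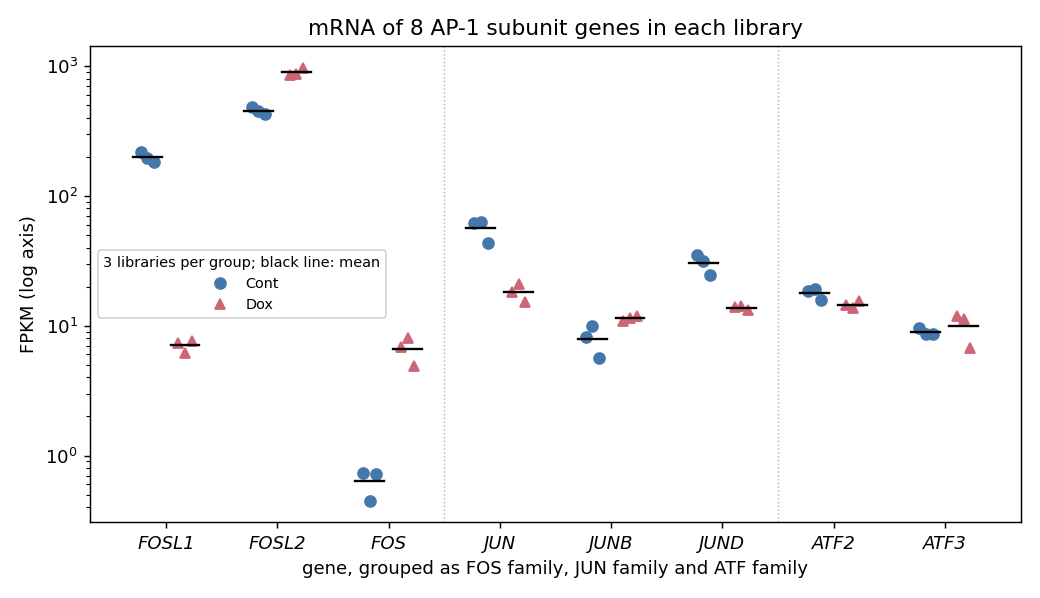
FPKM (log axis) of the 8 AP-1 subunit genes in each of 3 Cont libraries (circles) and 3 Dox libraries (triangles), with black lines for the group means. FOSL1 goes from 181 to 216 in Cont to 6.17 to 7.64 in Dox, FOS goes the other way from under 1, and FOSL2 is the highest member in both groups.

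FOSL1 showed the widest gap of the 8 members. It encodes FRA-1, a FOS family protein that lacks the strong activation domains of FOS and is known to accumulate when ERK signalling is sustained. The gene lies on chromosome 11 (65892049 to 65900573, minus strand, GRCh38; ENSG00000175592.8). FOSL1 was at 216, 196 and 181 FPKM in Cont replicates 1 to 3 and at 7.36, 6.17 and 7.64 FPKM in Dox replicates 1 to 3. Every Dox value lay far below every Cont value, and the libraries of a group stayed close together. The mean went from 198 ± 17.4 to 7.06 ± 0.779 FPKM (SD, n = 3), 28.0-fold lower, a log2 difference of -4.63 (SE 0.094). Only 4 other tested genes had a difference as low or lower. By mean level, FOSL1 stood above 95.1% of all genes with values in Cont and above 40.4% in Dox.

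FOSL2, which encodes FRA-2, was the member with the most mRNA in every library. It lies on chromosome 2 (28392448 to 28417312, plus strand; ENSG00000075426.11), and its start region carries the AP-1 string printed above. Its values were 479.8, 448 and 426 FPKM in Cont and 857, 864 and 972 FPKM in Dox. All 3 Dox libraries were above all 3 Cont libraries. The mean of 451 ± 27.3 in Cont and 898 ± 64.6 in Dox (SD, n = 3) differed 1.99-fold, or by 0.99 in log2 (SE 0.079). FOSL2 ranked 228th of 13117 genes by mean FPKM in Cont and 56th in Dox.

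FOS, the founding member and a classical immediate early gene, was the lowest of the 8 in Cont and showed the largest difference upward. It lies on chromosome 14 (75278774 to 75282230, plus strand; ENSG00000170345.9). These GENCODE coordinates take in the TATA string shown above, which lies before the RefSeq start. Its Cont values were 0.729, 0.450 and 0.715 FPKM and its Dox values 6.79, 8.09 and 4.91 FPKM. Dox replicate 3 was the lowest of the Dox libraries and still well above every Cont library. The means were 0.631 ± 0.158 and 6.60 ± 1.60 FPKM (SD, n = 3), 10.4-fold apart. On the log2(FPKM + 1) scale this is 2.20 (SE 0.16), and 3.39 on the deposited log2 scale, because adding 1 to a low FPKM shrinks the difference. The Cont values rest on an estimated 38.0 to 50.3 reads per library and the Dox values on 330 to 688. The read numbers are rough, since they assume the length of the longest transcript. Even at its Dox level FOS made up a small part of FOS family mRNA.

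Within the FOS family the balance between the 3 members differed between the groups. FOSB, a further gene of the family with means of 0.188 FPKM in Cont and 4.50 in Dox, is left out of these sums. FPKM is per transcript length, so levels of different genes are set side by side here. The lengths behind the deposited values are not given, so shares and ratios between genes are approximate. FOSL1 made up 30.4 ± 0.586% of the summed FPKM of the 3 members in Cont and 0.774 ± 0.0706% in Dox (SD, n = 3). FOSL2 went from 69.5 ± 0.580% to 98.5 ± 0.202%, and FOS from 0.0974 ± 0.0248% to 0.733 ± 0.215%. FOSL2 exceeded FOSL1 by 2.22 to 2.35 times in the Cont libraries and by 117 to 140.0 times in the Dox libraries. The summed FPKM of the family was nevertheless higher in Dox, 872 to 985 against 607 to 696. This sum follows FOSL2.

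JUN encodes c-Jun, the partner in most AP-1 pairs and a substrate of the JNK kinases. The gene has 1 exon on chromosome 1 (58780788 to 58784327, minus strand; ENSG00000177606.6). JUN was at 62.2, 63.2 and 43.0 FPKM in Cont and at 18.3, 21.1 and 15.1 FPKM in Dox. Cont replicate 3 was the lowest of its group, and even so it was more than the highest Dox library. The means of 56.1 ± 11.4 and 18.2 ± 3.00 (SD, n = 3) gave a 3.09-fold lower level, a log2 difference of -1.56 (SE 0.16).

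JUND, which encodes the most widely expressed JUN protein, was also lower in Dox. It is a gene of 1 exon on chromosome 19 (18279760 to 18281622, minus strand; ENSG00000130522.5). Values were 35.0, 31.4 and 24.5 FPKM in Cont and 13.8, 14.2 and 13.3 FPKM in Dox. The Dox libraries lay within 1 FPKM of each other while the Cont libraries spread more widely, and no Dox value reached a Cont value. The mean was 2.20-fold lower, 30.3 ± 5.34 against 13.8 ± 0.465 (SD, n = 3), with a log2 difference of -1.07 (SE 0.12).

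JUNB encodes a JUN protein that activates many AP-1 sites more weakly than c-Jun. It also has 1 exon on chromosome 19 (12791496 to 12793315, plus strand; ENSG00000171223.5). JUNB was at 8.13, 9.88 and 5.65 FPKM in Cont and at 10.8, 11.5 and 11.9 FPKM in Dox. The groups did not overlap, but Cont replicate 2 came close to the lowest Dox library. The means were 7.89 ± 2.12 and 11.4 ± 0.548 (SD, n = 3), 1.45-fold higher in Dox, a log2 difference of 0.51 (SE 0.16). Without Cont replicate 3 the log2 difference was 0.32.

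The JUN family differed in total and in makeup. Its summed FPKM was 73.2 to 105 in Cont and 40.3 to 46.9 in Dox. JUN made up 59.4 ± 0.928% of the family sum in Cont and 41.7 ± 3.85% in Dox (SD, n = 3). JUNB made up 8.30 ± 0.998% and 26.5 ± 2.69%, whereas the share of JUND was 32.3 ± 1.92% and 31.8 ± 1.35%, a gap smaller than the spread within either group. The ratio of FOS family FPKM (without FOSB) to JUN family FPKM was 6.17 to 8.30 in Cont and 18.7 to 24.4 in Dox. These ratios compare mRNA and not protein.

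**Figure D2:**
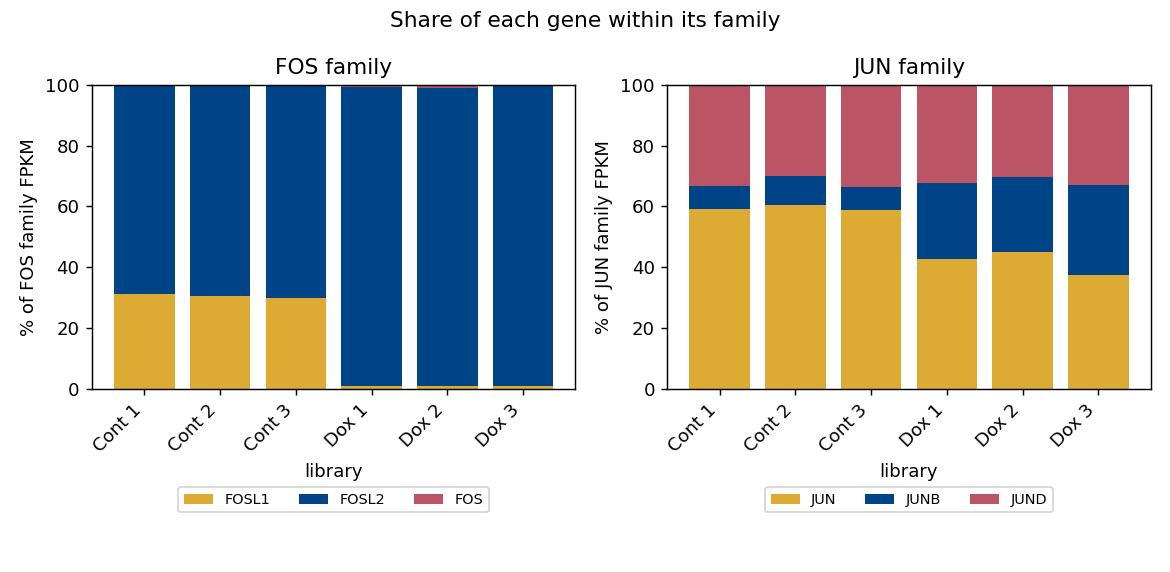
Stacked bars give each gene's share (%) of the summed FPKM of its family in each of the 6 libraries. The FOS family, without FOSB, is on the left and the JUN family on the right. FOSL1 makes up 29.8% to 31.0% of the FOS family in Cont and under 1% in Dox, and JUNB takes 7.72% to 9.45% of the JUN family in Cont and 24.6% to 29.6% in Dox.

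ATF2 encodes a CRE-binding partner of c-Jun that JNK and p38 kinases phosphorylate. It lies on chromosome 2 (175072250 to 175168382, minus strand; ENSG00000115966.16). ATF2 was at 18.5, 19.2 and 15.7 FPKM in Cont and at 14.4, 13.6 and 15.4 FPKM in Dox. The lowest Cont and the highest Dox library were nearly level, although they did not cross. The means were 17.8 ± 1.85 and 14.5 ± 0.868 (SD, n = 3), 1.23-fold lower, a log2 difference of -0.28 (SE 0.093). Its groups overlapped in each of the 4 other scalings, and the difference was -0.012 in TPM (transcripts per M) when genes of the mitochondrial genome were left out.

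ATF3 encodes a stress-induced subunit that can repress its targets as a pair of 2 ATF3 proteins. It lies on chromosome 1 (212565334 to 212620777, plus strand; ENSG00000162772.16). ATF3 was at 9.61, 8.61 and 8.65 FPKM in Cont and at 11.8, 11.2 and 6.70 FPKM in Dox. A pair of Dox libraries lay above Cont and 1 lay below it, so the groups overlapped. The means were 8.96 ± 0.567 and 9.92 ± 2.80 (SD, n = 3), and the log2 difference was 0.10 (SE 0.17). It was 0.33 without Dox replicate 3 and -0.04 without Dox replicate 1.

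The members spread over a narrower range in Dox once FOSL2 is set aside. In Cont the order by mean was FOSL2, FOSL1, JUN, JUND, ATF2, ATF3, JUNB and FOS, and only ATF3 and JUNB had ranges that overlapped between neighbours. In Dox it was FOSL2, JUN, ATF2, JUND, JUNB, ATF3, FOSL1 and FOS. There FOSL2 stood clear of JUN and JUND of JUNB, while the ranges of the other 5 neighbouring pairs overlapped. The highest of the 7 genes below FOSL2 had a mean of 198 FPKM in Cont and 18.2 in Dox.

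Libraries within a group did not vary evenly. Cont replicate 3 held the lowest Cont value of 6 members (all but FOS and ATF3), against 46.4% of all tested genes, and the highest of 0. Dox replicate 3 held the lowest Dox value of 4 members, FOS, JUN, JUND and ATF3, and the highest of the other 4, against 37.2% and 39.2% of all tested genes.

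**Figure D3:**
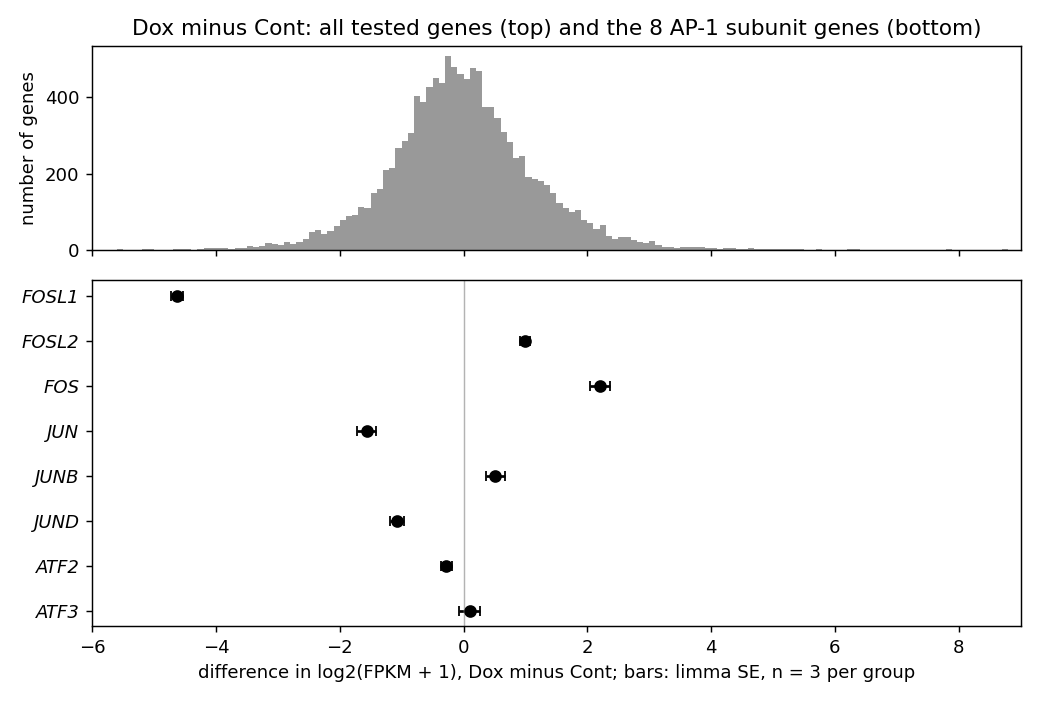
The histogram counts all 11526 tested genes by their difference in log2(FPKM + 1), Dox minus Cont, and the points below it show the 8 AP-1 subunit genes on the same axis with limma standard errors (n = 3 per group). FOSL1, at -4.63, lies in the far lower tail. FOS, at 2.20, lies on the upper side, where 372 tested genes, FOS included, were as high or higher. ATF2 and ATF3 lie near the middle.

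The size of the differences, large and small, depended on the scaling between libraries. Over the 5 scalings FOS ran from 1.99 to 2.76 and ATF2 from -0.28 to -0.012. The median over all tested genes was -0.06 with FPKM as deposited, 0.04 in TPM, 0.05 with median-of-ratios scaling, -0.04 under quantile normalization and 0.19 when mitochondrial genes were left out of TPM. Higher genes made up 46.7% of all calls as deposited and 59.0% in the last of these. Relative to that median, FOSL1 lay at -4.62 to -4.47 over the 5 scalings, FOSL2 at 1.06 to 1.40, FOS at 2.02 to 2.57, JUN at -1.51 to -1.39, JUNB at 0.58 to 0.61, JUND at -1.02 to -0.94, ATF2 at -0.21 to -0.15 and ATF3 at 0.16 to 0.17. No member changed sign under these scalings.

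**Figure D4:**
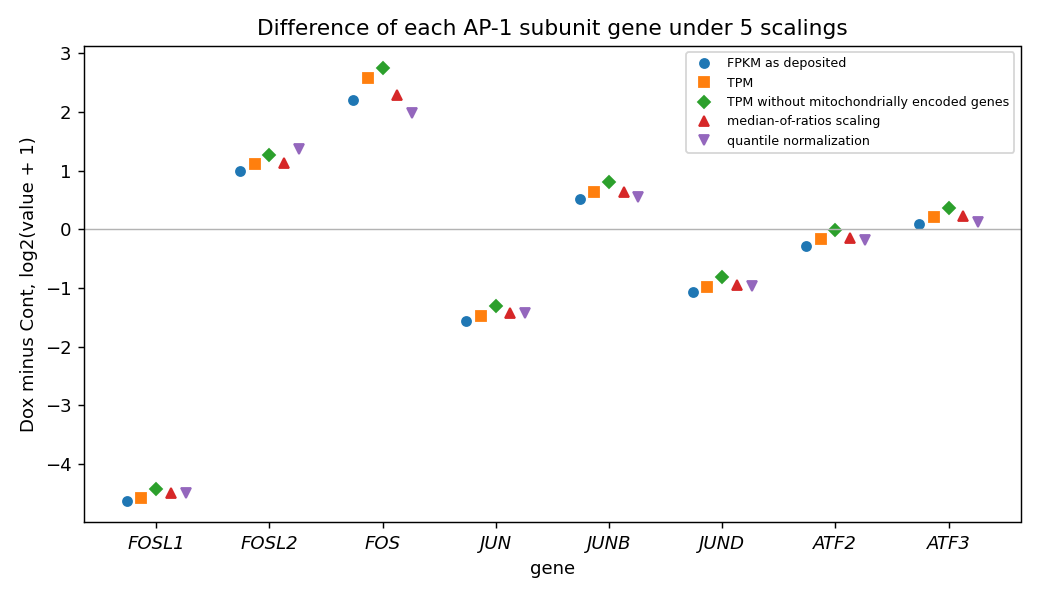
Difference of each AP-1 subunit gene, Dox minus Cont in log2(value + 1), under 5 scalings, each with its own marker. The points of FOSL1, JUN and JUND stay below 0 and those of FOSL2, FOS, JUNB and ATF3 above it, while ATF2 runs from -0.28 to -0.012.

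The annotated 3′ untranslated regions of the members differ in AU-rich letters, which are known in FOS mRNA as marks of rapid decay. FOS held 5 copies of ATTTA in 806 bases, or 6.20 per kilobase, and JUNB 2 in 500 bases, the next highest density. ATF2 had 3.39, ATF3 2.45, JUN 2.33 and FOSL2 1.85 per kilobase, while FOSL1 (1.50) and JUND (1.47) fell below the median of 1.75 over 11284 tested genes with such a region. The longer string TTATTTATT occurred in FOS and FOSL2, and in 9.51% of those tested genes. These are counts of letters in the longest coding transcript of GENCODE 29 and say nothing of decay in these cells.

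Among the 5 genes whose 6 values ran most like those of FOSL1 were EREG, SPNS2, CD44 and AXL. Likeness was the root mean square difference between log2(FPKM + 1) values after each gene's mean over the 6 libraries was subtracted, 0.151 for EREG and 0.286 for AXL. EREG, the gene of the growth factor epiregulin, went from 46.1 ± 0.559 to 1.08 ± 0.490 FPKM (SD, n = 3). Among the 5 genes most like FOS were TMX4, CFAP54, CHCHD7 and N4BP2, with differences of 0.0955 to 0.118. With 3 libraries a group, this measure mostly reads the size of the group difference.

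Other genes around AP-1 were taken from 8 lists, written with earlier results of these data known, and these genes were tested. Each count is read against the 80.4% of all tested genes past the threshold.

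Of the AP-1 relatives outside the 8 members, 6 of 7 had values (BATF was not analysed here) and 5 were tested. FOSB and ATF7 rose, BATF3 fell, and JDP2 and CREB5 did not pass, 60.0% called. FOSB, a further FOS family gene, was at 0.323, 0.0767 and 0.166 FPKM in Cont and at 4.61, 4.74 and 4.16 in Dox. All Dox libraries were far above Cont, and FOSB passed the filter through them alone. FOSB had means of 0.188 ± 0.125 and 4.50 ± 0.304 FPKM (SD, n = 3), with a log2 difference of 2.21 (SE 0.12, limma adjusted p = 8.47e-08). In FPKM it was 23.9-fold higher, against 10.4-fold for FOS. Its Cont values rest on an estimated 9.72 to 33.1 reads. ATF7, the closest relative of ATF2, rose from 9.61 ± 0.583 to 34.9 ± 1.76 FPKM (log2 difference 1.76, limma adjusted p = 2.53e-08). BATF3, a small partner of JUN proteins, fell from 48.5 ± 5.49 to 26.7 ± 2.39 FPKM (-0.83, limma adjusted p = 2.50e-05). JDP2, a JUN-binding repressor, was at 8.78 ± 1.65 and 6.89 ± 1.01 FPKM (limma adjusted p = 0.0675), and CREB5 at 22.4 ± 3.01 and 20.5 ± 2.07 (limma adjusted p = 0.326). BATF2 lay between 0.0269 and 0.313 FPKM and was not tested.

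The other bZIP factors leaned upward. Of 29 tested, 15 rose, 8 fell and 6 did not pass, with a median log2 difference of 0.44 beside -0.06 over all tested genes. CEBPD, a C/EBP factor of acute responses, rose from 19.8 ± 2.70 to 119 ± 2.96 FPKM (SD, n = 3). MAFA, a large MAF factor that passed the filter through Dox alone, rose from 0.319 ± 0.188 to 5.09 ± 1.28 FPKM, and CREB1, the cyclic AMP responsive factor, from 32.8 ± 1.76 to 125 ± 6.26. NFE2L3, a relative of NRF2, fell from 20.8 ± 1.69 to 4.92 ± 0.438 FPKM. ATF4, the effector of the integrated stress response, fell from 156 ± 8.88 to 57.4 ± 2.07, and CREB3 from 42.2 ± 1.17 to 19.4 ± 2.03. The largest limma adjusted p among these 6 genes was 1.07e-06.

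Kinases and RAS proteins upstream of AP-1 were divided evenly, with 9 rises and 9 falls among 23 tested, but 13 rises and 6 falls in mitochondria-free TPM (TPM with genes of the mitochondrial genome left out), and 11 and 7 in TPM or with median-of-ratios scaling. MAPK8, which encodes JNK1, the kinase that phosphorylates c-Jun, was at 73.2, 80.4 and 65.4 FPKM in Cont and at 384, 403 and 409 in Dox. The groups lay far apart, with a log2 difference of 2.44 (SE 0.082, limma adjusted p = 5.16e-09). MAPK9, the gene of JNK2, was at 15.5 ± 1.37 and 15.5 ± 0.487 FPKM (SD, n = 3; limma adjusted p = 0.975). RPS6KA3, which encodes the ERK-activated kinase RSK2, rose from 23.2 ± 1.32 to 86.3 ± 4.76 FPKM, and BRAF from 3.59 ± 0.184 to 13.2 ± 1.49. Falls were led by MAP2K3, a p38 activator, from 45.4 ± 5.26 to 18.5 ± 1.09 FPKM, by MAP3K1, a JNK pathway kinase, from 9.88 ± 1.96 to 3.94 ± 0.294, and by RPS6KA1, which encodes RSK1, from 80.7 ± 2.97 to 40.3 ± 5.54. The largest limma adjusted p among these 6 genes, apart from MAPK9, was 2.65e-05. MAPK9 is named outside the rule on named genes, beside its paralog, and was chosen after its values were seen.

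Factors that act on transcription of FOS and JUN genes gave 8 rises and 8 falls among 18 tested, and 10 rises and 6 falls in mitochondria-free TPM. CREB1, given above, headed the rises, followed by MEF2A, from 46.3 ± 2.96 to 117 ± 11.3 FPKM (SD, n = 3), and the Hippo pathway effector YAP1, from 60.2 ± 2.48 to 126 ± 4.32. SMAD3, a transducer of TGF-beta signals, fell from 606 ± 33.5 to 79.7 ± 6.24 FPKM (log2 difference -2.91, limma adjusted p = 1.67e-09). TEAD4, a DNA-binding partner of YAP1, fell from 25.7 ± 0.798 to 6.44 ± 0.433, and ELK3, an ETS factor of the serum response, from 23.7 ± 0.311 to 7.20 ± 0.562. The largest limma adjusted p among these 6 factors was 3.31e-07.

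Of 8 regulators of AP-1 protein stability, 7 were tested, of which 4 rose and 3 fell. FBXW7, the substrate receptor of a ubiquitin ligase that marks c-Jun for breakdown, was at 3.62, 3.81 and 4.14 FPKM in Cont and at 28.8, 30.7 and 26.0 in Dox. The groups were far apart, 7.39-fold, with a log2 difference of 2.60 (SE 0.089, limma adjusted p = 5.79e-09). COP1, another ligase for c-Jun, rose from 22.9 ± 2.12 to 59.7 ± 1.81 FPKM (SD, n = 3). ITCH, a ligase for JUN proteins, rose from 219 ± 17.2 to 286 ± 13.1, and GSK3B, a kinase that can phosphorylate c-Jun, from 13.1 ± 1.02 to 16.3 ± 0.459. TRIB1, a scaffold that brings substrates to COP1, fell from 27.7 ± 4.77 to 7.44 ± 1.24 FPKM, GSK3A from 41.9 ± 0.762 to 27.1 ± 2.06, and the deubiquitinase gene USP28 from 7.71 ± 0.593 to 5.57 ± 0.524. The largest limma adjusted p of the 7 was 0.00664, for GSK3B. The fall of USP28 did not pass in mitochondria-free TPM. DET1, a COP1 partner, was at 0.144 ± 0.0995 and 0.252 ± 0.0773 and was not tested.

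Immediate early genes, the group to which FOS, JUN and JUNB belong, differed in both directions. Of 23 tested, 8 rose and 13 fell, or 8 and 8 in mitochondria-free TPM. EGR1, a zinc finger factor induced alongside FOS, was at 5.06, 4.70 and 3.50 FPKM in Cont and at 50.9, 52.4 and 49.1 in Dox. It rose 11.5-fold (log2 difference 3.27, limma adjusted p = 5.42e-09), beside the 10.4-fold higher level of FOS. EGR2, which passed the filter through its Dox libraries alone, rose from 0.165 ± 0.0620 to 17.1 ± 1.95 FPKM (SD, n = 3), and the orphan nuclear receptor gene NR4A1 from 7.36 ± 0.980 to 29.0 ± 1.47. MYC fell from 59.8 ± 13.4 to 5.47 ± 0.751 FPKM, the repressor gene KLF10 from 19.1 ± 2.91 to 4.96 ± 0.459, and CCN1, a matricellular protein gene, from 322 ± 28.5 to 105 ± 3.64. KLF10 had the largest limma adjusted p of the 6, 4.63e-07.

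ERK output genes were also divided, with 5 rises and 7 falls among 14 tested (EPHA4 was not analysed here), and 6 and 5 in mitochondria-free TPM. DUSP6, the phosphatase gene that answers ERK activity, rose from 2.25 ± 0.814 to 19.7 ± 0.666 FPKM (SD, n = 3), ETV1 from 6.86 ± 0.564 to 33.4 ± 1.90 and SPRY2 from 17.3 ± 1.63 to 52.8 ± 2.01. EPHA2 fell from 84.8 ± 3.42 to 11.1 ± 1.05 FPKM, CCND1, which encodes cyclin D1, from 117 ± 7.59 to 17.3 ± 1.65, and the phosphatase gene DUSP5 from 44.3 ± 7.81 to 8.84 ± 1.20. The 6 genes had limma adjusted p-values of at most 2.49e-07.

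Known AP-1 target genes were mostly lower, with 17 falls and 5 rises among 26 tested and a median log2 difference of -0.93, beside -0.06 over all tested genes. MMP3, MMP13, VEGFC and IL6 were not analysed here. The list was written with large falls of several of its genes known, so its direction is no independent evidence. The largest falls included EREG, given above as like FOSL1, and the adhesion receptor gene CD44, from 218 ± 13.1 to 10.5 ± 0.222 FPKM (SD, n = 3). CLU, which encodes the chaperone clusterin, rose from 288 ± 47.8 to 2364 ± 255 FPKM. FN1, the fibronectin gene, rose from 1.37 ± 0.483 to 7.58 ± 0.507, and CXCL8, which encodes interleukin 8, from 11.8 ± 2.00 to 26.3 ± 3.00. The largest limma adjusted p of these 5 genes was 1.98e-05.

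**Figure D5:**
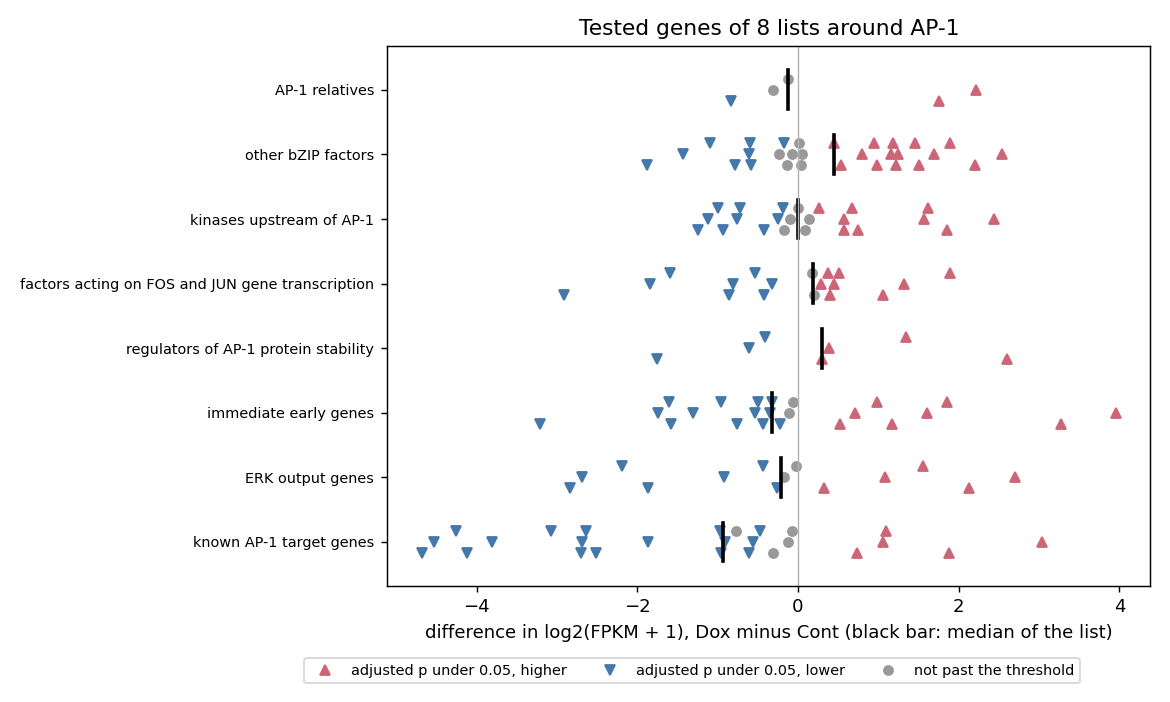
Each marker is 1 tested gene of 8 lists around AP-1, placed by its difference in log2(FPKM + 1), Dox minus Cont, with triangles for genes past the limma threshold and black bars for list medians. Medians run from -0.93 for the known AP-1 target genes to 0.44 for the other bZIP factors, and each list holds genes on both sides of 0.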

How the data were processed

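mRNA was measured by RNA-seq in 3 Cont and 3 Dox libraries, made by poly(A) capture per the labels' protocols. The authors deposited 1 table of 13117 gene symbols whose values are log2 FPKM with a small offset. FastQC 0.11.7 and the build GRCh38 are named in the submitters' processing notes. The aligner, counter, annotation and filters are not given in the sources used here. Columns were matched to samples by title. The description of Cont replicate 1 names the column of Cont replicate 2, which leaves the groups as they are.

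Each deposited log2 value was turned back into FPKM. Limma 3.58.1 (R 4.3.3) was run on log2(FPKM + 1) with a mean-variance trend, two-sided, with Benjamini-Hochberg adjustment over the 11526 genes that reached an FPKM of 1 in 3 or more libraries. The call threshold was an adjusted p of 0.05. The fit was run on simulated data with independent noise and few changed genes. That setting is unlike these data, so the run is no check of the calls made here. Differences are Dox minus Cont and understate those of low genes. Coordinates, transcript lengths and untranslated regions come from GENCODE 29 (GRCh38), which matched 12922 symbols to 1 gene each. Depth was estimated from the lowest values, above the value shared by libraries with no reads. An offset was chosen per library so that values up to 20 reads lay within 0.05 of a whole number. Lengths of the longest transcripts set the scale, and 40.1% of the 302 genes used for it lay within 2% of that scale. The handling of reads shared between paralogs is likewise not given.

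The members and lists were chosen with earlier results of these data known. All 8 members were named, and of each list the 3 largest rises and 3 largest falls past the threshold, or every gene in lists of at most 8. The genes most like FOSL1 and FOS were the 5 with the smallest difference. Some genes that this rule selects are not reported here. Same-numbered libraries did not pair (correlations of their deviations 0.0371, -0.00483 and 0.0793), so no block was used. The alternatives were other pseudocounts, filters, scalings and moderation, the replicate block, and leaving out each library with the tested genes kept.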

Additional observations from a re-analysis of the deposited data

How the results depend on the processing

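The number of genes called, 9265, stayed between 7727 and 10138 under the 18 alternatives, and 9272 were called with the replicate number as a block. Of 504 values recomputed, 484 moved by less than the replicate spread or stayed within 1.5 times of a count. Some of these could not move, so that number is no measure of stability. A member's difference is that of its group means, so another filter, moderation or block leaves it and the overlap count unchanged. No alternative changed the sign of a member other than ATF3, which ran from -0.04 to 0.33 when 1 library was left out, within its replicate spread. With pseudocounts of 0.1 and 0.01 and on the deposited log2 values, FOSL1 was at -4.79, -4.81 and -4.81 and FOS at 3.19, 3.37 and 3.39, because a smaller constant shrinks low values less. In TPM, FOSL2 was at 1.11 and FOS at 2.58. In TPM without mitochondrially encoded genes FOSL1 was at -4.43, FOSL2 at 1.27, FOS at 2.76, JUNB at 0.80, JUND at -0.82 and ATF2 at -0.012, and 8 immediate early genes were called lower in place of 13. Median-of-ratios scaling gave 1.12 for FOSL2 and -0.15 for ATF2, and quantile normalization gave 1.37 for FOSL2. The cause of these shifts was not tested. The filter at FPKM 5 left 1 AP-1 relative called higher in place of 2, since FOSB was not tested. Leaving out 1 library gave 1 to 2 AP-1 relatives called lower, 2 only without Cont replicate 3. The members whose groups did not overlap numbered 6 to 8. Counting error limits FOS and FOSB in Cont most.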
